A study of Mus musculus with 29 samples.

Results

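The genes that carry a cell from G1 into DNA replication were followed in megakaryocyte-erythrocyte progenitors (MEPs), the sorted mouse blood cells from which platelets and red cells arise. They were the D-type cyclins Ccnd1, Ccnd2 and Ccnd3, their kinases Cdk4 and Cdk6, the pocket proteins Rb1, Rbl1 and Rbl2 and the activating E2F factors E2f1 and E2f2. These 10 genes were taken by name from the Entrez identifiers of 18834 genes in the count tables, and all 10 passed the filter on low counts that left 13928 genes for testing. Every mouse carried the SclCre transgene (also written ScleCre), a Cre recombinase named after the blood transcription factor Scl. The mice without the JAK2 change gave 5 Ezh2 +/+ libraries (2 male, 3 female), called controls from here on, 4 Ezh2 +/- libraries (2 male, 2 female) and 4 Ezh2 -/- libraries (1 male, 3 female). The mice with JAK2 V617F, an activating change in the kinase that relays signals from the erythropoietin and thrombopoietin receptors, gave 4 Ezh2 +/+ libraries (1 male, 3 female), 6 Ezh2 +/- libraries and 6 Ezh2 -/- libraries, and these last 12 were all female. The labels call the samples replicates and say nothing of separate animals, so p-values here rest on the spread among the samples alone. The ages, the sorting gates, the share of cells in which Cre acted and the deleted part of Ezh2 are not stated in the labels.

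In G1, signals from cytokine and growth factor receptors raise the D cyclins, which bind and activate Cdk4 and Cdk6. These kinases phosphorylate the pocket proteins, which otherwise hold E2F factors at the promoters of replication genes in check, and the released E2F factors then switch those genes on. The D cyclins are partly interchangeable but are used to different degrees by each tissue. In red cell precursors cyclin D3 is known for setting the number of final divisions and E2f2 for a part in cell cycle exit during maturation. Ezh2 is the methyltransferase of Polycomb repressive complex 2, which keeps developmental regulators and the CDK inhibitor locus Cdkn2a silent.

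Libraries held 31583023 to 59448945 counts, with a median of 44648320, and the 10 genes had between 116 and 34369 counts in a library. Levels are given as CPM, counts per 1000000 counts after TMM scaling of the library sizes, and changes as log2 fold changes ± SE with adjusted p-values from edgeR's quasi-likelihood test (Benjamini-Hochberg over the 13928 genes, threshold 0.05). Ezh2 itself checked the labels: it was 269 to 319 CPM in the controls, 188 to 197 in Ezh2 +/- and 67.9 to 79.5 in Ezh2 -/-, and 244 to 313, 148 to 205 and 51.2 to 59.5 CPM in the same genotypes with V617F. Jak2 RNA, which does not report the V617F allele, was 165 to 256 CPM in all 29 libraries, but differed between groups. It was 199 to 223 CPM in controls, 187.7 to 209 in Ezh2 +/- and 165 to 188.1 in Ezh2 -/-. With V617F it was 220 to 243, 224 to 256 and 227 to 244 CPM in the same genotypes. The erythroid marker list (15 genes) summed to 5581 to 11240 CPM and the megakaryocyte list (15 genes) to 106 to 1488 CPM across the libraries, and no erythroid marker was at 0 in any library. Mast cell and basophil markers (8 genes) summed to 80.2 to 299 CPM and B cell markers (8 genes) to 2.94 to 48.6 CPM. Nearly all of the mast cell and basophil sum was the transcription factor Gata2, with means of 125 CPM in controls and 261 CPM in V617F Ezh2 -/-. The next highest marker of that list in controls, Cpa3, had a mean of 2.60 CPM. V617F Ezh2 +/+ replicate 1 stood apart from the 3 other libraries of its group: it had 24.7 CPM of Ccnd1 against 5.72 to 10.1 CPM, 40 of the 44 Cdkn2a counts of that group, a megakaryocyte sum of 1429 CPM against 305 to 670 CPM and the lowest Ezh2 level of the group. It is called V617F replicate 1 from here on, and calls of the 10 genes that end without it are given with both values.

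Ccnd1 was higher in Ezh2 -/- cells in both backgrounds, Ccnd2 was higher with V617F at each of the 3 Ezh2 genotypes, and E2f2 was lower with V617F at each of them, while Rb1, Rbl1, Rbl2 and E2f1 passed the test in none of the 9 comparisons. Between Ezh2 -/- and control 2 of the 10 genes were called higher (Ccnd1, E2f2) and 1 lower (Cdk6), where 23.7% of all tested genes were called (11.5% higher, 12.2% lower). With V617F present, Ezh2 -/- against Ezh2 +/+ called 2 higher (Ccnd1, Ccnd3) and 1 lower (Cdk4), where 26.6% of all genes were called (13% higher, 13.6% lower). V617F against control called 1 higher (Ccnd2) and 1 lower (E2f2), against 23.6% of all genes (9.73% higher, 13.9% lower). The same contrast called these 2 genes in Ezh2 +/- cells, against 9.87% of all genes (3.35% higher, 6.51% lower). In Ezh2 -/- cells it called 1 higher (Ccnd2) and 3 lower (Ccnd1, Cdk4, E2f2), against 41.6% (19.1% higher, 22.5% lower). The difference between the Ezh2 -/- effects with and without V617F called 1 higher (Cdk6) and 1 lower (Cdk4), against 19.1% (8.47% higher, 10.6% lower). In these comparisons 2 to 4 of the 10 genes were called, about as many as the share of all genes gives, with 2 of 10 beside 9.87% in Ezh2 +/- cells.

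No difference in these genes between Ezh2 +/- and Ezh2 +/+ cells passed the test. Ezh2 +/- against control called 0 of the 10 (0.0144% of all genes, 2 in number, were called), where 0 had an unadjusted p under 0.05 and DESeq2 also called 0, and log2 fold changes lay between -0.11 and 0.10. With V617F the same loss again called 0 (0.00718% of all genes), where 0 had an unadjusted p under 0.05 and DESeq2 called 0. That share is 1 gene of 13928, which was 35 with DESeq2, 20 among female libraries only and 37 without V617F replicate 3, with 0 of the 10 among them each time. Group ranges were apart for 0 of the 10 genes in either comparison, against 0.883% and 0.696% of all genes. In the comparison with V617F, Ccnd1 had the largest difference, -0.48 ± 0.33 (95% interval -1.16 to 0.20), and the other 9 genes lay between -0.07 and 0.17. The interval of Rbl2 in the same comparison ran from -0.08 to 0.08, so the precision differed widely between the genes.

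**Figure D1:**
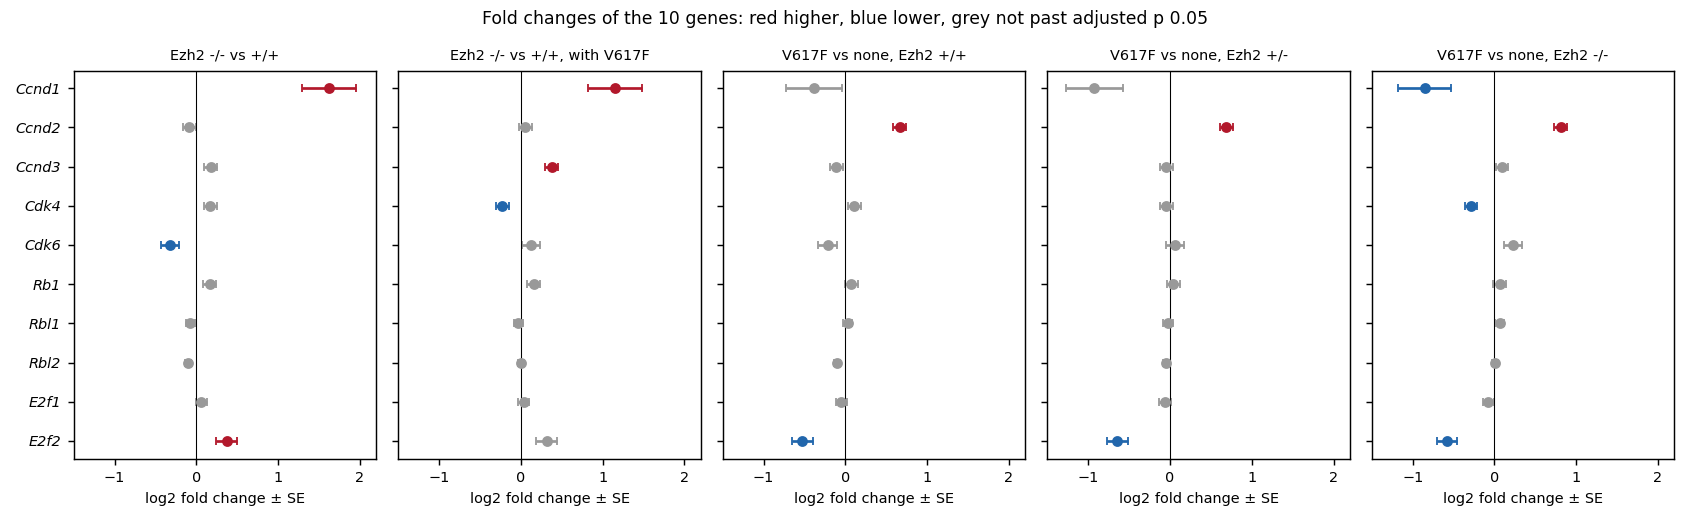
Log2 fold changes (horizontal axis, points, with SE as bars) of the 10 genes in the 5 comparisons of 2 groups that called any of them, red for higher, blue for lower and grey for not past an adjusted p of 0.05. Ccnd1 lies far to the right in both Ezh2 -/- panels (1.62 and 1.15), Ccnd2 to the right and E2f2 to the left in all 3 V617F panels, and the rows of Rb1, Rbl1, Rbl2 and E2f1 stay grey.

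Levels of different genes were set side by side per length, as CPM per kilobase of the gene length in the count tables. Cdk4 was the most abundant of the 10 by this measure (median over 29 libraries 392 CPM per kilobase), followed by Ccnd3 (70.9), Cdk6 (62.1) and Ccnd2 (47.7). E2f1, Rb1, Rbl1 and Rbl2 lay between 17.9 and 24.9 CPM per kilobase, E2f2 was at 8.96 and Ccnd1 was the lowest at 4.36. Ccnd1 was also the most variable: the SD of log2 CPM over the 29 libraries was 0.999 for Ccnd1 (percentile 98.2 among 9858 genes averaging 2 or more in log2 CPM). It was 0.39 for Ccnd2 (percentile 88.1) and 0.37 for E2f2 (86.8), but 0.06 for Rbl2 (0.517), 0.08 for Rbl1 (5.43) and 0.10 for E2f1 (12).

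**Figure D2:**
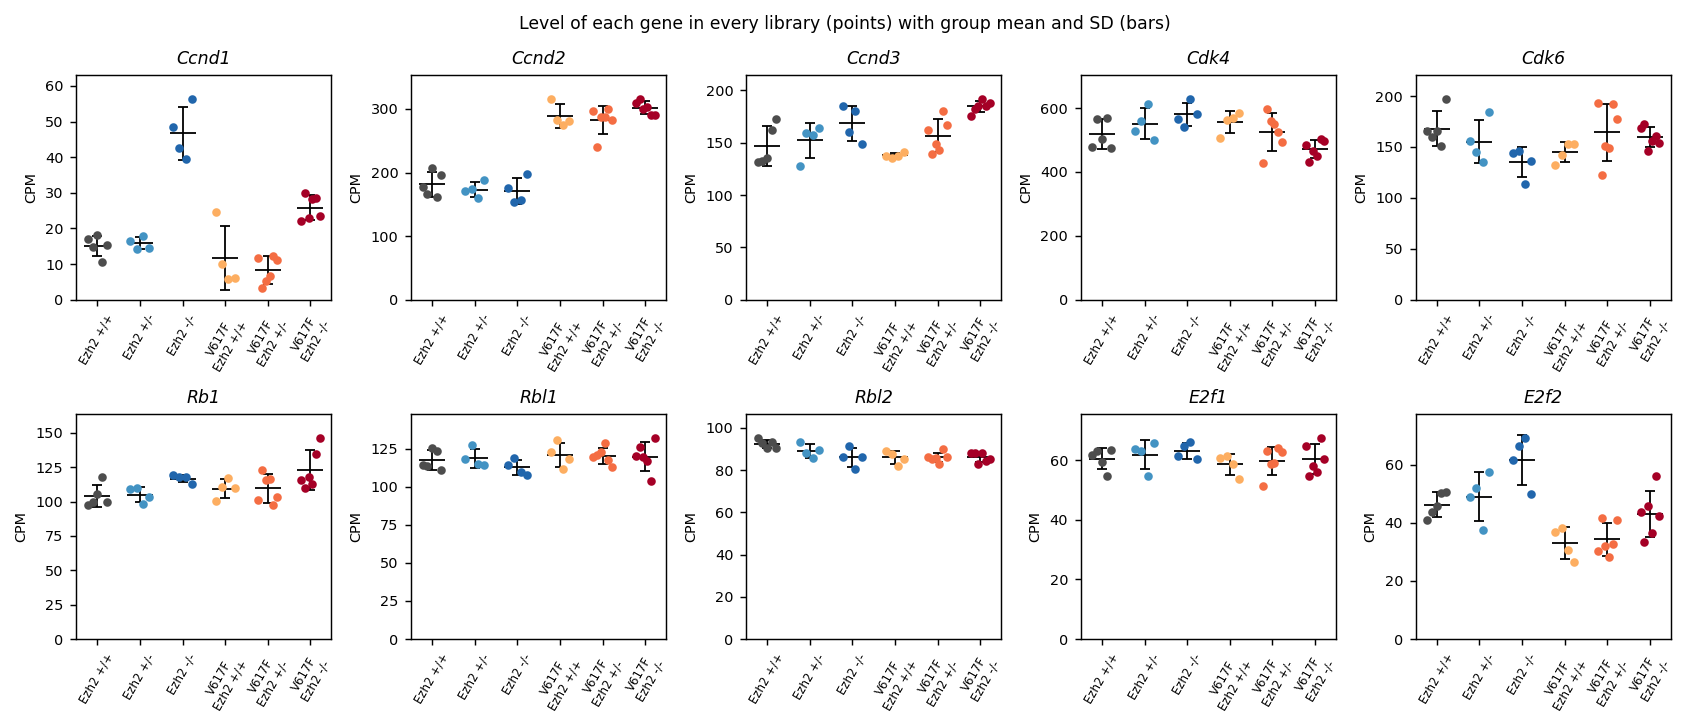
CPM (vertical axes from 0) of each of the 10 genes in every library (points) by genotype group, with group mean and SD (bars). The 4 Ezh2 -/- libraries stand at the top of the Ccnd1 panel (39.4 to 56.4 CPM), all 16 V617F libraries stand above the 13 others in the Ccnd2 panel, and the Rbl2 and E2f1 panels are flat.

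Ccnd1 encodes cyclin D1, the D cyclin most tied to growth factor signals. It was the gene of this set with the widest change, 3.07-fold higher in Ezh2 -/- cells than in controls. The controls held 17, 14.9, 18.02, 10.7 and 15.3 CPM and the Ezh2 +/- libraries 16.6, 14.4, 17.96 and 14.5 CPM. The Ezh2 -/- libraries held 48.4, 42.5, 39.4 and 56.4 CPM. All 4 Ezh2 -/- libraries lay well above every control and every Ezh2 +/- library, and these last 2 groups overlapped throughout. The difference between Ezh2 -/- and control was 1.62 ± 0.33 on the log2 scale (adjusted p = 0.000854), and it remained past the threshold in each of 17 alternative fits (1.46 to 1.70). Ranges of the groups did not overlap for 22.7% of all tested genes in this comparison, and for Ccnd1 and Cdk6 among the 10.

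With V617F, Ccnd1 was again higher in cells that lacked Ezh2 than in those that kept it. The V617F Ezh2 +/+ libraries held 24.7, 10.1, 5.72 and 6.18 CPM, the 6 V617F Ezh2 +/- libraries 3.21 to 12.2 CPM (median 8.96) and the 6 V617F Ezh2 -/- libraries 21.97 to 30.04 CPM (median 25.8). The V617F Ezh2 -/- libraries lay above 9 of the 10 V617F libraries with Ezh2, the exception being Ezh2 +/+ replicate 1, and below all 4 Ezh2 -/- libraries without V617F. The difference between V617F Ezh2 -/- and V617F Ezh2 +/+ was 1.15 ± 0.34 (adjusted p = 0.0141). It was 1.85 (9.51e-05) without V617F replicate 1, and the call ended without V617F replicate 2 (0.0522), 3 (0.0561) or 4 (0.0821), among female libraries only (0.0847) and with the compared groups only (0.0742). V617F Ezh2 -/- against Ezh2 -/- gave -0.85 ± 0.32 (adjusted p = 0.0368) with no overlap, where ranges did not overlap for 37.8% of all genes. That call ended in 12 of 18 alternative fits (highest adjusted p 0.0981), among them those without any 1 of the 4 Ezh2 -/- libraries (0.0527 to 0.0818) and without V617F Ezh2 -/- replicate 1, 2, 3, 4 or 6 (0.0543 to 0.0731).

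V617F against control gave -0.39 ± 0.35 for Ccnd1 (adjusted p = 0.438), and -1.03 (0.0172) without V617F replicate 1. In Ezh2 +/- cells V617F gave -0.92 ± 0.35 (adjusted p = 0.0974), although all 6 V617F libraries lay below all 4 others, a separation seen for 8.13% of all genes. The Ezh2 effect on Ccnd1 with V617F minus that without it was -0.47 ± 0.46 (95% interval -1.42 to 0.49, adjusted p = 0.458), so the difference between the backgrounds was not resolved.

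Ccnd1 moved with the megakaryocyte markers among the V617F libraries that kept Ezh2. The 3 V617F Ezh2 +/- libraries with 11.2 to 12.2 CPM of Ccnd1 had megakaryocyte sums of 1161 to 1488 CPM, and the 3 with 3.21 to 6.69 CPM had sums of 185 to 639 CPM. V617F Ezh2 +/+ replicate 1, with the most Ccnd1 of its group, had the highest sum of its group. The Ezh2 -/- libraries, with the most Ccnd1, had megakaryocyte sums of 106 to 156 CPM, and the controls 125 to 483 CPM. Between these 2 groups 3 of 14 tested megakaryocyte, 5 of 10 stem and progenitor and 6 of 12 T and NK cell markers fell. So did 3 of 14 monocyte, macrophage and dendritic and 2 of 7 mast cell and basophil markers, where 12.2% of all genes were called lower. Of 15 erythroid markers 1 rose and 1 fell, and no granulocyte or B cell marker passed. In bulk RNA, fewer cells of a type and less RNA per cell cannot be told apart. The part of cell composition in the Ezh2 and V617F differences of Ccnd1 was not tested.

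Ccnd2 encodes cyclin D2, which lies downstream of the JAK2 and STAT5 pathway in blood cells. It was 1.59- to 1.75-fold higher with V617F at the 3 Ezh2 genotypes, and no difference between Ezh2 genotypes passed the test. Without V617F the controls held 177, 166, 207, 162 and 196 CPM, the Ezh2 +/- libraries 171, 174, 159.8 and 188 CPM and the Ezh2 -/- libraries 176, 154, 157 and 198 CPM. With V617F the Ezh2 +/+ libraries held 316, 282, 276 and 282 CPM, and the 6 Ezh2 +/- libraries 240.4 to 301 CPM (median 287). The 6 V617F Ezh2 -/- libraries held 291 to 316 CPM (median 302).

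All 16 V617F libraries thus lay above all 13 libraries without it, with a gap from 207 to 240.4 CPM, and Ccnd2 was the single gene of the 10 for which this held. The share of all tested genes split in this way was not counted, so how unusual the split is cannot be said. With V617F, Ccnd2 rose by 0.66 ± 0.08 in Ezh2 +/+ cells (1.59-fold, adjusted p = 2.53e-06), by 0.69 ± 0.08 in Ezh2 +/- cells (1.61-fold, 8.2e-06) and by 0.81 ± 0.08 in Ezh2 -/- cells (1.75-fold, 9.77e-07), and all 3 calls held in every alternative fit. Ranges did not overlap for 15.3% of all genes between V617F and control, and for Ccnd2, Rbl2 and E2f2 among the 10. The Ezh2 -/- differences were -0.09 ± 0.08 without V617F (adjusted p = 0.429) and 0.06 ± 0.08 with it (0.619), and their difference was 0.14 ± 0.11 (95% interval -0.08 to 0.37).

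Megakaryocyte and granulocyte markers also moved with V617F, beside the rise in Ccnd2. Of 14 tested markers each, 9 megakaryocyte and 11 granulocyte markers rose between control and V617F Ezh2 +/+ (9.73% of all genes were called higher). There 10 of 14 tested monocyte, macrophage and dendritic markers and 10 of 12 T and NK cell markers fell (13.9% of all genes). With V617F in Ezh2 -/- cells 14 and 14 rose (19.1% of all genes), as did 7 of 7 mast cell and basophil and 8 of 10 stem and progenitor markers. In those cells 8 of 15 erythroid markers fell (22.5% of all genes). Of the monocyte, macrophage and dendritic markers 6 fell and 1 rose there, and of the T and NK cell markers 5 fell and 1 rose. The summed granulocyte list was 49.96 to 341 CPM in controls and 674 to 1198 CPM in V617F Ezh2 +/+, and no granulocyte marker was at 0 in either group. V617F Ezh2 +/- replicate 2, with the lowest megakaryocyte sum of the V617F libraries (185 CPM), also had the lowest Ccnd2 of them (240.4 CPM). Control replicate 5, with the highest sum of the libraries without V617F (483 CPM), held 196 CPM of Ccnd2. The part of cell composition in the size of the Ccnd2 difference was not tested.

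Ccnd3, cyclin D3, was the D cyclin with the highest level per kilobase in all 6 groups. It was higher in V617F Ezh2 -/- cells than in V617F Ezh2 +/+ cells. The V617F Ezh2 +/+ libraries were closely spaced, at 138, 135, 138 and 141 CPM, and the 6 V617F Ezh2 -/- libraries spanned 175 to 192 CPM (median 185). These groups did not overlap, which was so for 18.1% of all genes, and the difference was 0.37 ± 0.07 (1.30-fold, adjusted p = 0.000733), past the threshold in all 18 alternative fits. Of 8 B cell markers 6 rose in the same comparison, where 13% of all genes were called higher and 13.6% lower. The B cell sum was 3.03 to 9.67 CPM in V617F Ezh2 +/+ and 6.86 to 48.6 CPM in V617F Ezh2 -/-, with no marker at 0 in either group. No megakaryocyte, granulocyte, mast cell or stem cell marker passed there, 1 of 15 erythroid markers rose and 2 fell, 2 of 12 T and NK cell markers rose and 1 fell, and 1 of 14 monocyte, macrophage and dendritic markers rose. The part of these markers in the Ccnd3 difference was not tested. The 6 V617F Ezh2 +/- libraries lay between and across them, from 139.7 to 179.9 CPM (median 155).

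Without V617F the spread of Ccnd3 within groups was wider and the groups overlapped. The controls held 131, 132, 135, 162 and 173 CPM, the Ezh2 +/- libraries 128, 159, 157 and 164 CPM and the Ezh2 -/- libraries 185, 160.2, 180.2 and 149 CPM. The difference between Ezh2 -/- and control was 0.17 ± 0.08 (adjusted p = 0.0945). It passed without control replicate 5 (0.24, adjusted p = 0.0389), and the Ezh2 effect with V617F minus that without was 0.20 ± 0.10 (0.151). Male minus female Ccnd3 was -0.18 ± 0.06 (adjusted p = 0.125), and no gene of the 10 passed the test for sex.

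The make-up of the D cyclin RNA per kilobase differed with both alleles, while Ccnd3 stayed the largest part. These shares are descriptions and were not tested. In CPM without division by length, Ccnd2 had the higher mean in each group (182 against 147 CPM of Ccnd3 in controls). Per kilobase, Ccnd3 made up 64.6% ± 3.98 (SD, n = 5) of the summed D cyclin RNA in controls, Ccnd2 31.4% ± 3.16 and Ccnd1 4.02% ± 0.88. In Ezh2 -/- cells the Ccnd1 share was 10.6% ± 1.71 (n = 4), and its lowest library (8.85%) lay above the highest of every other group. With V617F and Ezh2 +/+ the Ccnd2 share was 43.8% ± 0.72 (n = 4) and the Ccnd3 share 53.6% ± 2.56. In V617F Ezh2 -/- cells the shares were 58.0% ± 1.27 for Ccnd3, 37.1% ± 1.29 for Ccnd2 and 4.83% ± 0.57 for Ccnd1 (n = 6).

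The sum of the D cyclins was highest where both alleles were present. It was 100.4 ± 9.24 CPM per kilobase in controls (n = 5), 117 ± 6.74 in Ezh2 -/- (n = 4), 114 ± 5.41 in V617F Ezh2 +/+ (n = 4) and 141 ± 2.91 in V617F Ezh2 -/- (n = 6). The lowest V617F Ezh2 -/- library, at 137 CPM per kilobase, lay above the highest library of the other 5 groups, a V617F Ezh2 +/- library at 135. These sums are descriptions and were not tested.

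**Figure D3:**
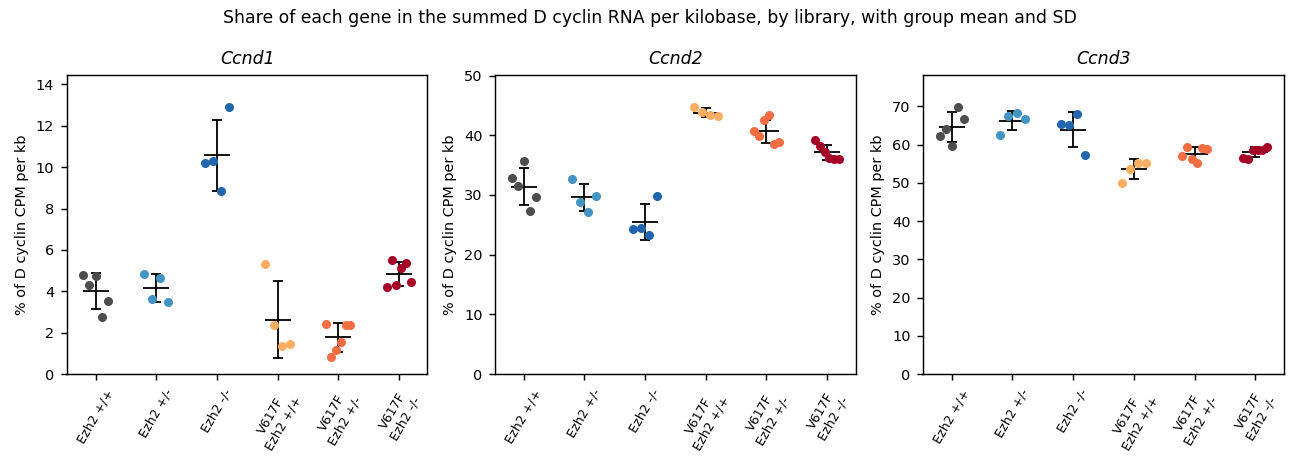
Share of Ccnd1, Ccnd2 and Ccnd3 in the summed D cyclin CPM per kilobase (percent, vertical axes from 0) in every library (points), with group mean and SD (bars). The Ccnd1 share is highest in the 4 Ezh2 -/- libraries (8.85 to 12.9%), and the Ccnd2 share is 36.1% or more in all 16 V617F libraries.

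Cdk4 made up 84.4 to 88.7% (group means) of the summed CPM per kilobase of the 2 kinases. It was lower in V617F Ezh2 -/- cells than in cells with either allele alone. The V617F Ezh2 -/- libraries spanned 431 to 502 CPM (median 474). The V617F Ezh2 +/+ libraries held 507, 563, 569.7 and 585 CPM and the Ezh2 -/- libraries 567, 541, 629 and 581 CPM, so neither group overlapped the first. Ranges did not overlap for 18.1% of all genes in the former comparison and for 37.8% in the latter. The difference was -0.23 ± 0.08 against V617F Ezh2 +/+ (adjusted p = 0.0342) and -0.29 ± 0.08 against Ezh2 -/- (adjusted p = 0.00687).

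Cdk4 in the controls, at 477, 566, 504, 570.1 and 474 CPM, overlapped all other groups. Its Ezh2 effect with V617F minus that without was -0.40 ± 0.11 (adjusted p = 0.0242). The Cdk4 call against V617F Ezh2 +/+ ended in 7 of 18 alternative fits, namely without V617F replicate 2 (0.0893), 3 (0.064) or 4 (0.131), without V617F Ezh2 -/- replicate 2 (0.0932), 3 (0.0676) or 4 (0.0786) and among female libraries only (0.0789). The Cdk4 call against Ezh2 -/- ended without Ezh2 -/- replicate 3 (0.0507), and that of the difference between backgrounds without the same library (0.0624), without control replicate 1 (0.0596) and among female libraries only (0.102). Between V617F Ezh2 -/- and Ezh2 -/- 8 of 15 erythroid markers were lower, where 22.5% of all genes were called lower, and none was at 0. The erythroid marker sum was also lower in V617F Ezh2 -/- libraries (5581 to 7168 CPM) than in Ezh2 -/- libraries (8552 to 10117 CPM). Its part in the Cdk4 difference was not tested.

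The start of Cdk4 is shown because it repeats a word that few promoters hold. In the RefSeq promoter table (build GRCm38.p6, 250 bases before to 50 after the start), 4 copies of the E-box CACGTG, a word bound by Myc-type factors among others, begin at positions -172, -118, -98 and -11 of the annotated start of Cdk4, and 7.15% of 32851 promoters hold at least 1 copy on either strand. The stretch with the middle pair, chr10:127063417-127063442 on the plus strand, reads as follows, with the E-boxes in capitals.
Cdk4: CACGTGggatagcaacaggtCACGTG
Among the 7 of 10 genes with an entry in this table, Cdk6 held 1 such word (at -220), and the others held none in the window. The bases before the Cdk4 start overlap an annotated exon of Cdk4 itself. The entries of Cdk6 and E2f1, and a further entry each of E2f2 and Ccnd3, likewise overlap exons of their own genes. A match of letters is a description and not a binding site. Myc RNA was higher in V617F Ezh2 -/- cells, where Cdk4 was lower. It rose by 0.49 ± 0.11 against V617F Ezh2 +/+ (adjusted p = 0.00289) and by 0.51 ± 0.11 against Ezh2 -/- (0.00187). The part of Myc in the Cdk4 difference was not tested.

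Cdk6, the other kinase of the D cyclins and the one most used by blood stem and progenitor cells, was lower in Ezh2 -/- cells without V617F. The controls held 166, 160.3, 166, 151 and 197 CPM and the Ezh2 -/- libraries 144, 146, 114 and 137 CPM. All 4 Ezh2 -/- libraries lay below all controls, by -0.32 ± 0.11 (adjusted p = 0.0385). The call ended in 10 of 17 alternative fits: without control replicate 1 (0.0652), 3 (0.052) or 5 (0.166), without Ezh2 -/- replicate 1 (0.0507), 3 (0.208) or 4 (0.0612), with the replicate block (0.0691), without a filter (0.0512), among female libraries only (0.119), and with 3 libraries left out together, control replicate 5 and Ezh2 +/- replicates 2 and 5 (0.215).

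With V617F, Cdk6 was 132, 142, 153 and 153 CPM in Ezh2 +/+, 122 to 194 CPM (median 164) in Ezh2 +/- and 146 to 173 CPM (median 159) in Ezh2 -/-. These 3 groups overlapped, and the difference between V617F Ezh2 -/- and V617F Ezh2 +/+ was 0.12 ± 0.11 (adjusted p = 0.417). The Ezh2 effect with V617F minus that without was 0.45 ± 0.16 (adjusted p = 0.0454). That call was lost in 17 of 27 alternative fits with adjusted p up to 0.139, among them those without control replicate 1, 2, 3 or 5, Ezh2 -/- replicate 1 or 3, any of the 4 V617F Ezh2 +/+ replicates, or V617F Ezh2 -/- replicate 1, 2 or 4. Without V617F replicate 1 the adjusted p was 0.0599. Stem and progenitor markers were lower with Cdk6 in Ezh2 -/- cells: 5 of 10 fell, where 12.2% of all genes were called lower. The sum of these markers was 468 to 616.5 CPM against 638 to 730 CPM in controls, with none at 0. Their part in the Cdk6 difference was not tested.

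Of the pocket proteins, Rbl1 and Rbl2 had the smallest spread of the 10 genes. Rb1, the retinoblastoma protein and the pocket protein most bound to activating E2F factors, ranged from 97.3 to 146 CPM over the 29 libraries, Rbl1 from 104 to 132 CPM and Rbl2 from 80.3 to 95.2 CPM. Group means of Rb1 ran from 104 ± 8.19 CPM in controls (n = 5) to 123 ± 14.4 CPM in V617F Ezh2 -/- (n = 6), those of Rbl1 from 113 to 121 CPM and those of Rbl2 from 85.9 to 92.4 CPM, and neighbours in each of these orders overlapped. The Ezh2 -/- difference of Rb1 was 0.16 ± 0.08 without V617F (adjusted p = 0.138) and 0.16 ± 0.08 with it (0.137). Rbl1 gave -0.07 ± 0.06 (95% interval -0.19 to 0.04) and -0.03 ± 0.05 (-0.15 to 0.08) in the same comparisons.

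Rbl2, which with Rbl1 serves repressor complexes in resting cells, came nearest to the threshold of the 4 genes that passed no test. The controls held 95.2, 92.8, 90.6, 93.0 and 90.5 CPM and the V617F Ezh2 +/+ libraries 89.1, 87.5, 82.1 and 85.0 CPM. The 4 V617F libraries lay just below all controls, by -0.11 ± 0.04 (0.930-fold, adjusted p = 0.0519), and Ezh2 -/- against control gave -0.10 ± 0.04 (adjusted p = 0.0548). Rbl2 passed in the first comparison without V617F replicate 1 (0.0445), without the sex term (0.047) and with the replicate block (0.0429), and in the second without Ezh2 -/- replicate 2 (0.0186), with RLE scaling (0.0445), with DESeq2 (0.0215) and with the replicate block (0.0455).

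E2f1, an activator of replication genes, was 51.6 to 67.6 CPM over the 29 libraries, with group means from 58.7 to 63.3 CPM and fold changes between -0.07 and 0.06 in the 7 comparisons of 2 groups. E2f2, its close relative, was 26.6 to 69.3 CPM, a 2.61-fold range.

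The E2f2 controls held 40.9, 43.7, 46.005, 50.4 and 50.8 CPM and the V617F Ezh2 +/+ libraries 36.8, 38.2, 30.6 and 26.6 CPM. All 4 V617F libraries lay below all controls, by -0.53 ± 0.13 (0.695-fold, adjusted p = 0.00565), and the call held in all 17 alternative fits. In Ezh2 +/- cells the 4 libraries without V617F held 49.0, 52.0, 37.6 and 57.6 CPM and the 6 with it 28.3 to 41.7 CPM (median 32.4). Replicate 4 of the first group overlapped the second, and the difference was -0.64 ± 0.13 (adjusted p = 0.00248). This call ended with the compared groups only (0.0591) and with 3 libraries left out together, control replicate 5 and Ezh2 +/- replicates 2 and 5 (0.273).

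In Ezh2 -/- cells E2f2 held 61.6, 66.6, 69.3 and 49.9 CPM without V617F and 33.5 to 56.3 CPM (median 43.1) with it. The groups overlapped through replicate 4 of the first and replicate 5 of the second, and the difference was -0.58 ± 0.13 (adjusted p = 0.00152), past the threshold in all 18 alternative fits. Ezh2 -/- against control gave 0.37 ± 0.13 (adjusted p = 0.0411) with overlap at Ezh2 -/- replicate 4. That call ended in 10 of 17 alternative fits, those without control replicate 1, 3, 4 or 5 or any 1 of the 4 Ezh2 -/- replicates (0.0516 to 0.109), among female libraries only (0.0998) and with 3 libraries left out together, control replicate 5 and Ezh2 +/- replicates 2 and 5 (0.0675). With V617F the Ezh2 -/- difference was 0.31 ± 0.13 (adjusted p = 0.0727), and the difference between the backgrounds was -0.06 ± 0.18 (95% interval -0.43 to 0.32).

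E2F factors also act on the promoters of their own family, so the starts of E2f2, which changed, and of Rbl1, which did not pass any test, are shown. The words searched on both strands were TTTCCCGC, TTTCGCGC, TTTGCCGC and TTTGGCGC, and 2.26% of 32851 RefSeq promoters held at least 1. Of the 7 genes with an entry, E2f2 and Rbl1 held 1 each and the others none. The 250 bases before the start are given for both (GRCm38.p6), 5′ to 3′ on the gene's strand, with the E2F word in capitals: E2f2 at chr4:136172024-136172273 on the plus strand and Rbl1 at chr2:157204535-157204784 on the minus strand, where the word begins at -18.
E2f2: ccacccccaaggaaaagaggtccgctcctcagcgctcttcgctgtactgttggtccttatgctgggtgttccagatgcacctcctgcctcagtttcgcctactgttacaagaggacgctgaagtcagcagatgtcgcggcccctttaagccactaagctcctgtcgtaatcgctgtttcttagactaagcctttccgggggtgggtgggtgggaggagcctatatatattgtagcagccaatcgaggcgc
Rbl1: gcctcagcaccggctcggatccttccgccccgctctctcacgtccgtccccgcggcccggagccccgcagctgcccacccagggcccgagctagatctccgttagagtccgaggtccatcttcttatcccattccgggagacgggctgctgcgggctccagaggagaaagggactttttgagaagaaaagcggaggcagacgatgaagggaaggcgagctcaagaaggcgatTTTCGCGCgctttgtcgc
In E2f2 the word lies after the start, at position 40, in the stretch chr4:136172291-136172320.
E2f2 after the start: atccgaatttggcggcatatagTTTGGCGC
The sequence TTCNNNGAA, the core of STAT sites, was in none of the 7 genes' windows and in 8.3% of all promoters. Ccnd1, Ccnd2 and Rb1 were not matched.

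Downstream of these genes, a list of 29 E2F target genes of DNA replication was set beside E2f1 and E2f2. In Ezh2 -/- against control 11 of 29 rose and 0 fell (median 0.18, against -0.01 over all genes, of which 11.5% were called higher), among them Pcna, the replication clamp (389 ± 23.9 to 497 ± 44.5 CPM, SD, n = 5 and 4), and Rrm2, which makes deoxynucleotides (275 ± 31.7 to 388 ± 33.6 CPM). With V617F the same Ezh2 contrast had 0 higher and 6 lower (median -0.12; 13.6% of all genes were called lower), among them the origin protein Orc1 (-0.44 ± 0.12, adjusted p = 0.00968) and the chromatin assembly factor Chaf1b (-0.27 ± 0.09, 0.0203). V617F against control called 0 of 29 with edgeR (median 0.05), with 3 at an unadjusted p under 0.05 and 1 called by DESeq2, although E2f2 was lower there. V617F in Ezh2 +/- cells also called 0 of 29 with edgeR (median -0.05), with 1 at an unadjusted p under 0.05 and 0 called by DESeq2.

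In Ezh2 -/- cells V617F went with 26 of 29 E2F targets lower and 0 higher (median -0.33, against -0.03 over all genes, of which 22.5% were called lower), among them Rfc3, of the clamp loader (-0.37 ± 0.07, adjusted p = 0.000662), and Uhrf1, which keeps DNA methylation at replication (-0.36 ± 0.07, 0.00107). The Ezh2 effect with V617F minus that without was lower for 14 of 29 and higher for 0 (median -0.34; 10.6% of all genes were called lower). The 26 lay between 19 and 27 when 1 library was left out and was 23 among female libraries only. The 11 that rose in Ezh2 -/- cells were 7 without control replicate 1 or 5 and 2 among female libraries only. The 6 were 10 without V617F replicate 1, and 1 when either of V617F replicates 2 and 4 or V617F Ezh2 -/- replicates 2 and 4 was left out, and the 14 were 3 without control replicate 1 or Ezh2 -/- replicate 3 and 1 among female libraries only.

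The summed E2F target list was 9481 to 10125 CPM in Ezh2 -/-, 7828 to 9217 CPM in controls and 7177 to 8676 CPM in V617F Ezh2 -/-. The Ezh2 -/- libraries did not overlap either of these groups. The erythroid sums were lower in V617F Ezh2 -/- as well, and the megakaryocyte and granulocyte sums higher (793 to 1237 and 133 to 1358 CPM, against 106 to 156 and 22.4 to 88.9 CPM in Ezh2 -/-). Their part in the lower E2F targets was not tested. Among 18 genes of mitosis, 11 rose in Ezh2 -/- against control (median 0.30), including Top2a (0.29 ± 0.07, adjusted p = 0.00438) and the kinase Aurka (0.49 ± 0.13, 0.00758), where 11.5% of all genes were called higher. With V617F in Ezh2 -/- cells 5 of the 18 fell (median -0.22), near the 22.5% of all genes called lower there, among them Birc5 (-0.39 ± 0.11, 0.00787) and Ccnb2 (-0.30 ± 0.09, 0.0103). The 11 were 7 without control replicate 1 or Ezh2 -/- replicate 3 and 0 among female libraries only, and the 5 were 0 without Ezh2 -/- replicate 3 and 2 without Ezh2 -/- replicate 1 or V617F Ezh2 -/- replicate 4. Ezh2 loss with V617F called 0 of the 18 with edgeR, with 1 at an unadjusted p under 0.05 and 1 called by DESeq2.

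**Figure D4:**
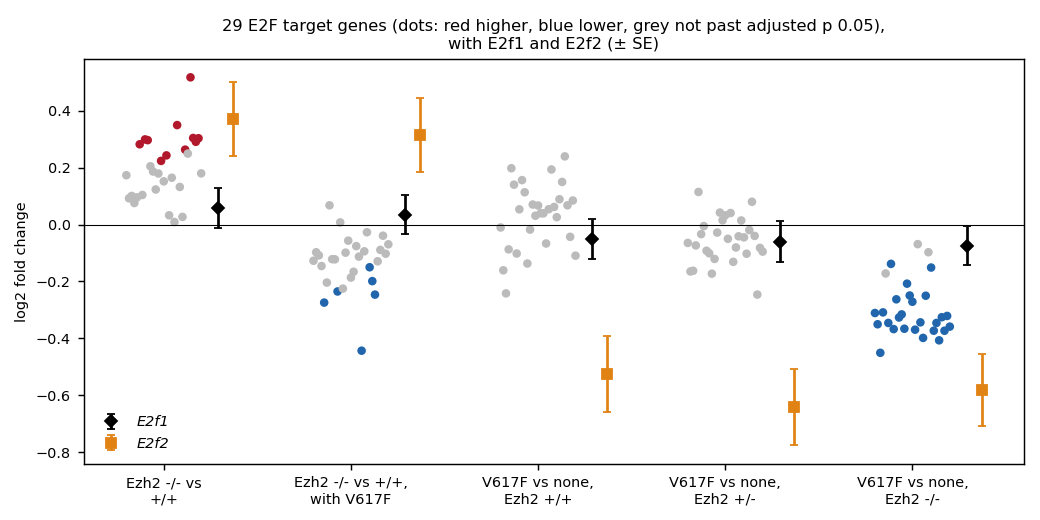
Log2 fold change (vertical axis) of each of 29 E2F target genes (dots, red for higher, blue for lower, grey for not past an adjusted p of 0.05), beside E2f1 (black) and E2f2 (orange) with SE, in 5 comparisons. The dots lie above 0 in Ezh2 -/- cells without V617F and below 0 (down to -0.45) for V617F in Ezh2 -/- cells, E2f2 is at -0.53 or lower in all 3 V617F comparisons, and E2f1 stays between -0.07 and 0.06.

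E2f7 and E2f8 are atypical E2F factors that repress E2F targets late in the cycle. E2f7 rose in Ezh2 -/- cells from 16.2 ± 1.87 (n = 5) to 31.7 ± 2.34 CPM (n = 4; 0.95 ± 0.14, adjusted p = 1.03e-05), and with V617F from 18.3 ± 4.54 (n = 4) to 29.9 ± 1.39 CPM (n = 6; 0.69 ± 0.14, adjusted p = 0.000653). The Ezh2 -/- libraries of E2f7 did not overlap the Ezh2 +/+ libraries in either background. That was so for 22.7% of all genes without V617F and for 18.1% with it. E2f8 rose by 0.21 ± 0.07 (adjusted p = 0.0315) and 0.28 ± 0.07 (0.005) in the same comparisons and fell by 0.26 with V617F alone (adjusted p = 0.0107; 0.0525 without V617F replicate 1). Of the 8 genes of this list 2 rose and 0 fell in the first, where 11.5% of all genes were called higher and 12.2% lower. In the second 3 rose and 1 fell (13% and 13.6% of all genes). For V617F in Ezh2 -/- cells 1 rose and 4 fell (19.1% and 22.5% of all genes), with Tfdp1, the common E2F partner, among those that fell (-0.24 ± 0.07, adjusted p = 0.00839).

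Inhibitors of the G1 kinases also changed without Ezh2. In Ezh2 -/- against control 5 of 7 rose and 1 fell, where 11.5% of all genes were called higher and 12.2% lower. With V617F 3 of 7 rose, where 13% of all genes were called higher. Cdkn2b, an inhibitor of Cdk4 and Cdk6, was 0.0331 to 0.128 CPM in controls, about the floor of 3 counts (0.0496 to 0.0946 CPM in a library), and 0.783 to 1.28 CPM in Ezh2 -/-. Its neighbour Cdkn2a had 4 counts over the 5 controls. Cdkn2a was 4.08 to 8.33 CPM in Ezh2 -/- and 1.35 to 3.75 CPM in V617F Ezh2 -/-. These 2 groups did not overlap, which was so for 37.8% of all genes. Cdkn1b, an inhibitor of the cyclin E kinase, was lower in Ezh2 -/- (29.9 to 34.2 CPM) than in controls (40.1 to 49.6 CPM), by -0.49 ± 0.10 (adjusted p = 0.000733).

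Cdkn2c, another Cdk4 and Cdk6 inhibitor, was 30.5 ± 1.95 CPM in Ezh2 -/- (n = 4) and 19.97 ± 2.74 CPM in V617F Ezh2 -/- (n = 6), a difference of -0.62 ± 0.10 (adjusted p = 0.000118). Of the 7 inhibitors, 1 rose and 2 fell in this comparison of V617F in Ezh2 -/- cells, a share near the 41.6% of all genes called there. Between control and V617F Ezh2 +/+ 2 of 7 passed, Cdkn2a and Cdkn1c, a share near the 23.6% of all genes called. V617F replicate 1 held 40 of 44 Cdkn2a counts and 95 of 181 Cdkn1c counts of its group. Without that library neither passed (adjusted p = 0.649 for Cdkn2a and 0.342 for Cdkn1c).

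Genes of the next step, cyclins E and A, Cdk2, Cdc25a and the kinase that activates CDKs, differed between the backgrounds. Without V617F, 4 of 8 rose in Ezh2 -/- cells (11.5% of all genes were called higher), among them Ccne2, cyclin E2 (0.39 ± 0.10, adjusted p = 0.00769), and Mnat1, a subunit of the CDK-activating kinase (0.25 ± 0.06, 0.00525). With V617F 1 rose, again Mnat1 (0.18 ± 0.06, 0.0351), and 4 fell, among them the other subunits of that kinase, Cdk7 (-0.40 ± 0.07, 0.000268) and Ccnh (-0.31 ± 0.08, 0.00512). There 13% of all genes were called higher and 13.6% lower. The difference between backgrounds passed for 5 of 8, all lower (10.6% of all genes), among them Ccne1, cyclin E1 (-0.95 ± 0.25, 0.0195). Ccne1 was 157 to 206 CPM in Ezh2 -/- and 90.5 to 143 CPM in V617F Ezh2 -/-, with no overlap, as for 37.8% of all genes. V617F against control called 0 of these 8 with edgeR, with 4 at an unadjusted p under 0.05 and 2 called by DESeq2, and 2 rose without V617F replicate 1.

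Among genes that degrade cyclins and inhibitors, 3 of 9 rose and 1 fell in Ezh2 -/- cells, where 11.5% of all genes were called higher and 12.2% lower. Skp2, which targets Cdkn1b for degradation, rose from 35.8 ± 3.10 (n = 5) to 48.8 ± 2.96 CPM (n = 4; 0.46 ± 0.09, adjusted p = 0.000781). With V617F it rose by 0.34 ± 0.09 in Ezh2 +/+ cells (0.00911), but gave 0.17 (0.292) in Ezh2 +/- and -0.16 (0.164) in Ezh2 -/- cells. Its Ezh2 effect with V617F minus that without was -0.50 ± 0.13 (0.0195). The ligase gene Ambra1, a regulator of D cyclin stability, fell by 0.18 with V617F in Ezh2 +/+ cells (adjusted p = 0.00667). It gave 0.003 (0.98) in Ezh2 +/- and -0.10 (0.0667) in Ezh2 -/- cells. With V617F present, Ezh2 loss called 0 of these 9 with edgeR, with 3 at an unadjusted p under 0.05 and 2 called by DESeq2. Of 8 genes of the DREAM and MuvB complexes, which couple Rbl1 and Rbl2 to cell cycle promoters, 1 rose in Ezh2 -/- against control (Mybl1, 0.80 ± 0.19, adjusted p = 0.00309), a share near the 11.5% of all genes called higher. With V617F in Ezh2 -/- cells 4 of the 8 fell, where 22.5% of all genes did, among them Lin37 (-0.23 ± 0.07, 0.00942).

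Gab2, an adaptor of cytokine receptors, rose with V617F at all 3 Ezh2 genotypes, by 1.25 ± 0.13 (adjusted p = 9.05e-07), 1.35 ± 0.14 (2.18e-06) and 1.17 ± 0.14 (4.02e-06). Like Ccnd2 it did not overlap between the 16 V617F libraries (38.2 to 51.6 CPM) and the 13 others (12.8 to 25.8 CPM), a split whose share among all genes was not counted. Mycn, a Myc family factor, rose with V617F in Ezh2 -/- cells by 3.39 ± 0.55 (0.000168). In Ezh2 +/- cells its difference was 1.59 ± 0.52 (0.0545). In Ezh2 +/+ cells it was 1.59 ± 0.49 (0.0203), and 1.01 (0.13) without V617F replicate 1, which held 71.0 CPM of Mycn against 31.6, 9.62 and 19.3 CPM in the other libraries of its group. Pim1, a STAT5-driven kinase, was lower in Ezh2 -/- (77.1 to 85.4 CPM) and in V617F Ezh2 +/+ (88.5 to 111 CPM) than in controls (107 to 232 CPM), by -0.93 ± 0.19 (0.000623) and -0.66 ± 0.18 (0.011). V617F was not followed by a called change of Pim1 in Ezh2 +/- (-0.27, 0.411) or Ezh2 -/- cells (0.36, 0.111). The Ezh2 effect on Pim1 with V617F minus that without was 1.02 ± 0.26 (0.0185). Of 10 genes in this list 2 rose and 3 fell with V617F in Ezh2 +/+ cells (1 and 2 without V617F replicate 1), where 9.73% of all genes were called higher and 13.9% lower. With V617F in Ezh2 -/- cells 5 rose and 1 fell (19.1% and 22.5% of all genes). In Ezh2 -/- against control 0 rose and 3 fell (11.5% and 12.2% of all genes). The same Ezh2 contrast with V617F had 4 higher and 1 lower (13% and 13.6% of all genes). The difference between these Ezh2 effects was higher for 3 and lower for 0 (8.47% and 10.6% of all genes). Of the 97 genes of these 8 lists, edgeR and DESeq2 each called 0 for Ezh2 +/- against control, 0 for the same contrast with V617F and 0 for the difference of the 2 effects, with 7, 7 and 6 at an unadjusted p under 0.05. The last of these called 0 of the 10 genes and 0% of all genes, with 0 of the 10 at an unadjusted p under 0.05 and 0 with DESeq2.

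The genes whose pattern over the 29 libraries was most like that of each changed gene were found by the root mean square difference of centred log2 CPM among 9848 tested genes. For Ccnd2 they were Osbpl3 and Tnfrsf21 (0.14 each, beside an SD of 0.39 for Ccnd2), and for Cdk4 they were Fh1 (0.034) and Suclg1 (0.036, beside 0.15). For Ccnd1 they were Faah (0.43) and Slc35f2 (0.49, beside 0.999). For E2f2 they were Natd1 (0.15) and Pgap6 (0.19, beside 0.37), for Ccnd3 Trappc6a (0.098) and Prkra (0.10, beside 0.19), and for Cdk6 Ago1 (0.075) and Foxn3 (0.092, beside 0.19). All these genes share libraries and scaling with the genes they resemble.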

How the data were processed

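Bulk RNA-seq of sorted MEPs (230000 cells per sample, per the labels) was deposited by the authors as raw counts per Entrez gene and library, with a gene length in bases. Reads were aligned with STAR to mm9, per the submitters' processing notes. The STAR version, annotation, counting program and use of strand were not given in the sources used here. Symbols came from the RefSeq table of GRCm38.p6 (18772 of 18834 identifiers named), and no coordinate was carried between builds. The members and lists were chosen with earlier results of these data known.

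From the deposited counts, TMM scaling, filterByExpr (minimum count 10, minimum total 15) and edgeR 4.0.16's quasi-likelihood test were run on all 29 libraries with group and sex as terms (22 residual degrees of freedom, biological coefficient of variation 18.1%), in R 4.3.3 with limma 3.58.1. P-values were adjusted over 13928 genes by Benjamini and Hochberg with a threshold of 0.05, and the fit was tested on simulated data. Confidence intervals are at 95%, and a floor of 3 counts (0.0496 to 0.0946 CPM) covers counting error only. Genes outside the 10 were named as the 2 called genes of a list and direction with the lowest p-values, and others as examples chosen after their values were seen. Alternatives were RLE scaling, no filter, no sex term, a replicate block, the compared groups only, female libraries only, each library left out in turn, control replicate 5 and Ezh2 +/- replicates 2 and 5 left out together (earlier results showed these apart), CPM on plain column totals and DESeq2 1.42.0. Counts of the E2F target and mitosis lists under these settings, and the other lists without V617F Ezh2 +/+ replicate 1, were added after seeing the data. Pairs of libraries of a group differed by more than sampling noise (lowest chi-square per degree of freedom 4.92), so none was counted as a copy.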

Additional observations from a re-analysis of the deposited data

Results flagged for a closer look

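Ccnd2 in V617F Ezh2 +/- replicate 2 was 240.4 CPM, far below the other 5 libraries of its group (283 CPM or more), a gap of 0.7 of the whole range of the group. It was the only such value among 60 gene and group combinations tested, and chance flags about 1 in 20. The same library had the lowest megakaryocyte marker sum (185 CPM) and the highest erythroid sum (11240 CPM) of its group, and their part in the Ccnd2 value was not tested.

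The Ezh2 -/- effect differed between the backgrounds for Cdk4 (-0.40, with V617F minus without) and for Cdk6 (0.45), by edgeR's quasi-likelihood test of the difference itself (adjusted p = 0.0242 and 0.0454). With V617F, 6 of 6 Ezh2 -/- libraries held less Cdk4 than all 4 Ezh2 +/+ libraries, and without V617F 4 of 4 Ezh2 -/- libraries held less Cdk6 than all 5 controls. Ranges did not overlap for 18.1% of all genes in the comparison with V617F and for 22.7% in that without it. The Cdk4 result ended in 3 and the Cdk6 result in 17 of 27 alternative fits, as given above.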

How the results depend on the processing

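No call of the 10 genes changed direction in any alternative. Among the refitted fold changes 1686 kept their side of the threshold, 67 lost a call and 17 gained one, and 101 of 1452 uncalled refits had the other sign. The number of the 10 genes called fell to 1 among female libraries only for Ezh2 -/- against control and for the same contrast with V617F, and to 1 for V617F in Ezh2 +/- cells with the compared groups only and without control replicate 5 and Ezh2 +/- replicates 2 and 5. For the difference between backgrounds it was 1 without a filter, 1 with the replicate block, 1 without those 3 libraries and 0 among female libraries. Leaving out 1 library gave 1 to 3 genes for Ezh2 -/- against control, 1 to 3 for the same with V617F, 2 to 4 for V617F against control, 2 to 4 for V617F in Ezh2 -/- cells and 0 to 2 for the difference between backgrounds.

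Over all genes, female libraries only moved the calls of Ezh2 -/- against control from 3307 to 1681, of the same contrast with V617F from 3709 to 2267, of V617F against control from 3288 to 1874 and of the difference between backgrounds from 2663 to 128. Ezh2 +/- against Ezh2 +/+ with V617F went from 1 to 20 in females, 35 with DESeq2 and 37 without V617F replicate 3. V617F in Ezh2 +/- cells went from 1374 to 2170 without the sex term, 313 with the compared groups only and 94 without the 3 libraries. The difference between backgrounds went to 1623 with the block, 1199 without the 3 libraries, 297 without Ezh2 -/- replicate 3 and 4632 without V617F replicate 1. V617F in Ezh2 -/- cells went from 5795 to 3197 without Ezh2 -/- replicate 3, and Ezh2 loss with V617F from 3709 to 1954 without V617F replicate 4. The share of higher genes among those called moved from 48.5 to 60.9% for Ezh2 -/- against control without the 3 libraries, from 48.9 to 60.3% for the same with V617F in females, from 34.0 to 13.7% (compared groups), 69.1% (without the 3 libraries) and 45.2% (DESeq2) for V617F in Ezh2 +/- cells, and from 44.3 to 68.0% for the difference between backgrounds in females. The cause of these shifts was not tested. The fits without the sex term, with the block and with DESeq2 used all 29 libraries, and the others named here used fewer.

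Some same-numbered libraries deviated together and others did not (correlations -0.441 to 0.795): in no comparison were all 4 pairs above 0.1, though 3 of 4 were for both Ezh2 +/- comparisons and for V617F in Ezh2 -/- cells. The numbers were therefore not taken as pairs. With the replicate block the calls of Cdk6 for Ezh2 -/- against control (0.0691) and between backgrounds (0.0995) were lost, and Ccnd3 (0.0405) and Rbl2 (0.0455) for Ezh2 -/- against control and Rbl2 for V617F against control (0.0429) passed. Other gains were Rb1 for Ezh2 -/- against control (compared groups only, 0.0447), E2f2 for Ezh2 loss with V617F (no sex term, 0.0414; without V617F Ezh2 -/- replicate 2, 0.0345), Ccnd1 for V617F in Ezh2 +/- cells (no sex term, 0.0473) and Cdk6 for V617F in Ezh2 -/- cells (compared groups only, 0.0186; without the 3 libraries, 0.0433), Ccnd3 for Ezh2 -/- against control (without the 3 libraries, 0.0464), and those given above for Ccnd1, Ccnd3 and Rbl2. On plain column totals 3 of 60 group levels moved by more than 1 SD, and all were means of V617F Ezh2 -/-. Ccnd2 went from 302 to 317 CPM, Ccnd3 from 185 to 194 CPM and Rbl2 from 86.2 to 90.4 CPM. Depth did not limit the 10 genes, the lowest of which had 116 counts.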
